A study of Homo sapiens with 24 samples.

Results

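The response of WT AID-DIvA cells to mocetinostat followed by recovery was measured by RNA-seq in 6 of the 24 libraries of the series. AID-DIvA is a U2OS osteosarcoma line that carries the restriction enzyme AsiSI, which cuts the genome at its recognition sites once it is induced. The 3 treated libraries came from WT cells exposed to mocetinostat for 24 h and then kept without the drug for 24 h. The 3 control libraries came from untreated WT cells of the same line. The libraries were assigned by their titles, and no measured value was used to choose them. The series design calls the 3 libraries of a group biological replicates. The cells carry the AsiSI system in both groups, and neither group is described as induced to cut. No dose of mocetinostat is given for the RNA-seq, and the study's own figure headings name DMSO where the labels say untreated. The comparison therefore describes the RNA left after removal of the drug, in 1 cell line. It is later set beside the responses of ID3-knockout (ID3-KO) AID-DIvA cells after recovery and of WT U2OS cells before recovery, from other libraries.

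Mocetinostat inhibits class I histone deacetylases, the enzymes that remove acetyl groups from histone tails. Their inhibition raises histone acetylation and switches on some silent genes while others fall, among them genes of cell division. The CDK inhibitor CDKN1A is a widely used marker of the response. Once the drug is removed, acetylation usually declines again, so that RNA measured after a recovery time can hold both lasting and returning changes.

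The treatment field of the labels names the opposite group for these libraries, against the titles, descriptions and file names. When libraries were matched by title to the sequenced reads that the study lists per sample, the assigned share was alike in all of them, which was not so by the treatment field. Total counts ran from 44530742 to 64695318 per library. The first principal component held 87.0% of the variance and separated treated from untreated libraries. The second held 7.21% and set treated replicate 1 apart from treated replicates 2 and 3. The label osteosarcoma was checked against mesenchymal markers. VIM, a mesenchymal filament protein, stood at 534 CPM (counts scaled to the normalized library size) in untreated cells, SPARC, a bone matrix protein, and COL1A1, a collagen chain, were also abundant, and RUNX2, the osteoblast transcription factor, stood at 31.3 CPM. TWIST1 did not pass the filter on low counts, and COL1A2, the partner chain of COL1A1, stood at only 0.466 CPM.

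Recovery left a response of many small and fewer large changes. Of the 20289 genes tested, 46.9% changed: 4851 rose (23.9%) and 4661 fell (23%). The rule behind "rose" and "fell" throughout is an adjusted p under 0.05, with Benjamini-Hochberg adjustment of the quasi-likelihood test of edgeR. The median size of a change among these genes was 0.407 on the log2 scale. A log2 change beyond 1 was reached as well by 986 genes that rose (4.86%) and 512 that fell (2.52%), together 7.38% of the genes tested, and these are the genes referred to as called. The 3 treated and 3 untreated libraries did not overlap for 56.2% of all genes tested. Counts of list members below are to be read against these shares. Increases were the larger changes: 278 genes rose and 55 fell by 2 to 4 on the log2 scale, and 70 rose and 3 fell by more than 4. The genes called higher started from low levels, with a median of 0.339 CPM in untreated cells against 1.24 CPM for the genes called lower and 9.23 CPM over all genes tested. The filter on low counts also keeps genes read in the treated libraries alone, and these can only be called higher. The contrast in starting level is therefore set in part by the filter. Long non-coding RNAs were called higher in 7.09% of 3214 genes and lower in 3.36%. Protein coding genes were called higher in 4.26% of 14634 and lower in 2.30%, and pseudogenes higher in 5.69% of 1511 and lower in 2.45%. In bulk RNA, a change in the share of cells that express a gene and a change in RNA per cell cannot be told apart.

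**Figure D1:**
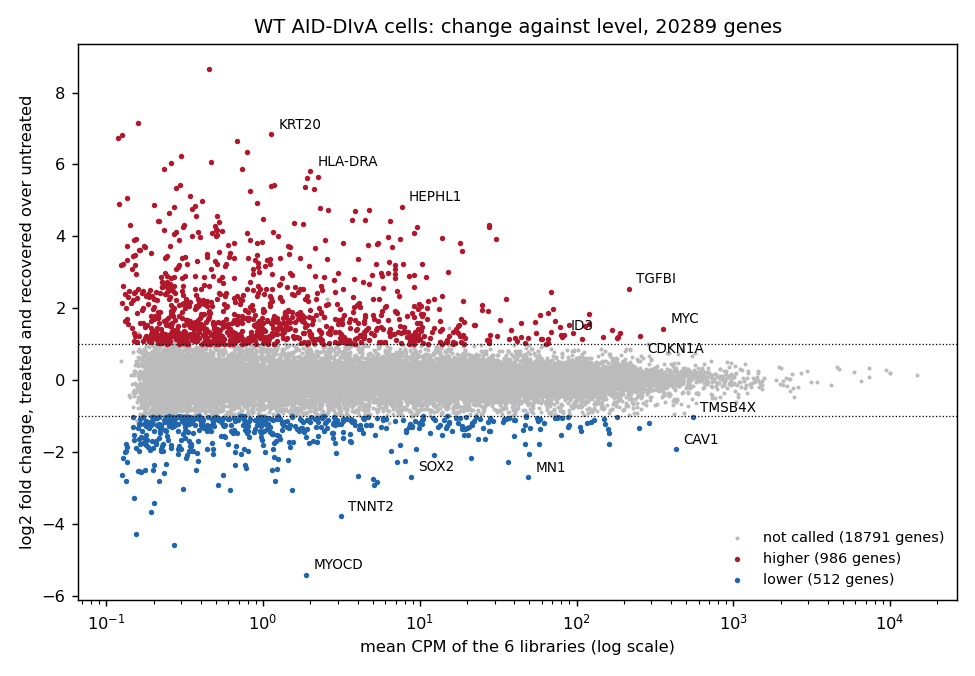
Each point is 1 of the 20289 genes tested, with the mean CPM of the 6 libraries on a log axis and the log2 fold change of treated and recovered over untreated WT AID-DIvA cells on the vertical axis; dotted lines mark 1 and -1. The 986 genes called higher (red) reach larger changes and lie at lower levels than the 512 called lower (blue).

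The 10 largest increases started from a mean of at most 0.520 CPM in untreated cells, and a low starting level favours a large ratio. Among called genes with a mean of at least 1 CPM and no overlap between groups, KRT20 (ENSG00000171431.3, hg19 chromosome 17, 39032193 to 39041479), a keratin of intestinal epithelium, came first. It had 2, 1 and 0 reads in the untreated libraries and 1.83, 2.52 and 2.33 CPM in the treated ones. The ratio of its CPM-scaled counts was 130, with a 95% counting interval from 44.1 to 633. HLA-DRA (ENSG00000204287.9, chromosome 6, 32407619 to 32412823), the alpha chain of the MHC class II molecule HLA-DR, stood at 0.0788, 0.0333 and 0.0916 CPM in untreated cells and at 3.77, 3.94 and 4.08 CPM after recovery. Its log2 fold change was 5.80 (standard error 0.22, edgeR quasi-likelihood adjusted p = 3.0e-10), and the treated libraries lay close together, far above every untreated one. UCA1 (ENSG00000214049.6, chromosome 19, 15939771 to 15947130), a long non-coding RNA first described in bladder cancer, went from 0.0739 ± 0.00638 to 3.73 ± 0.242 CPM (SD, n = 3 per group), a log2 change of 5.61. STMN2, which encodes a microtubule-binding protein of neurons, rose by 5.30 on the log2 scale, and 1 untreated library held none of its reads. HEPHL1 (ENSG00000181333.11, chromosome 11, 93754527 to 93846917), a copper-dependent ferroxidase, was measured at higher counts, with 0.433, 0.684 and 0.443 CPM before and 16.4, 13.7 and 14.3 CPM after, a log2 change of 4.82 (standard error 0.14, edgeR quasi-likelihood adjusted p = 3.2e-11). The others of the 10 largest were PSG8, a placental glycoprotein whose reads may be split among its near-identical family, at 5.65, MYOZ2, a protein of the muscle Z-disc, at 5.43, KYNU, an enzyme of tryptophan breakdown, at 5.39, and the non-coding genes RP11-1152H15.1 at 5.36 and RP11-245M24.1 at 4.78.

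The largest decrease was that of a muscle regulator. MYOCD (ENSG00000141052.13, chromosome 17, 12569207 to 12672266), the coactivator of serum response factor that drives smooth and cardiac muscle genes, read 3.74, 3.68 and 3.65 CPM in untreated cells and 0.0915, 0.0901 and 0.0718 CPM after recovery. It was near silence in each treated library and fell by 5.42 on the log2 scale (standard error 0.19, edgeR quasi-likelihood adjusted p = 2.1e-10). TNNT2 (ENSG00000118194.14, chromosome 1, 201328136 to 201346890), cardiac troponin T, went from 5.86 ± 0.383 to 0.426 ± 0.147 CPM (SD, n = 3 per group). SOX2 (ENSG00000181449.2, chromosome 3, 181429714 to 181432221), a transcription factor of stem cells, read 15.9, 15.3 and 14.4 CPM before and 2.16, 2.52 and 2.39 CPM after, a fall with no overlap. MN1, a transcriptional regulator, was the most deeply read of the 10, at 93.5, 83.3 and 77.6 CPM before and 10.5, 14.5 and 14.1 CPM after. The chemokine CXCL14 fell by 2.85 on the log2 scale, the dopamine receptor DRD1 by 2.91, the potassium channel KCNK10 by 3.06, the calcium-binding CAPSL by 2.80, the signalling antagonist SHISA3 by 2.68 and the non-coding RP11-328N19.1 by 2.75.

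**Figure D2:**
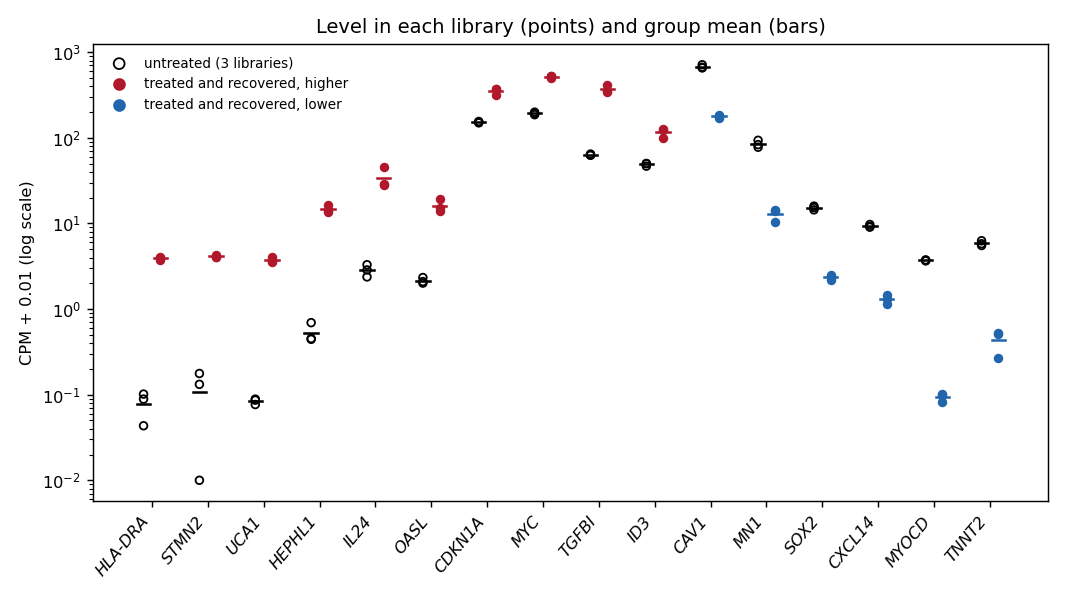
CPM plus 0.01 on a log axis for 16 genes in each of the 3 untreated libraries (open circles) and the 3 treated and recovered libraries (filled circles), with a bar at each group mean. In none of the 16 genes do the groups overlap, and HLA-DRA, STMN2 and UCA1 start from under 0.2 CPM in every untreated library.

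Among called genes without overlap, the ranking by the difference in mean CPM, which favours long and abundant transcripts, named other genes. MYC, the transcription factor of cell growth, read 199, 186 and 192 CPM in untreated cells and 532, 501 and 522 CPM after recovery, a tight rise of 1.43 on the log2 scale (standard error 0.04, edgeR quasi-likelihood adjusted p = 3.9e-11). TGFBI, a matrix protein induced by TGF-beta, rose from 62.8, 64.6 and 62.6 to 412, 346 and 348 CPM, with treated replicate 1 above the others. CDKN1A stood at 152, 150 and 155 CPM before and at 315, 373 and 371 CPM after, so it was raised 24 h after removal of the drug. Of the 8 textbook responders to HDAC inhibitors, CDKN1A among them, 3 rose and 4 fell, with a median of -0.12. ANKRD1, a muscle ankyrin repeat protein, rose from 108 ± 4.52 to 268 ± 26.7 CPM, and SOD2, mitochondrial superoxide dismutase, from 93.0 ± 1.26 to 244 ± 25.6 CPM (SD, n = 3 per group). CAV1, the coat protein of caveolae, had the largest loss among them: 655, 667 and 714 CPM became 170, 186 and 179 CPM, a fall of 1.93 on the log2 scale (standard error 0.05, edgeR quasi-likelihood adjusted p = 1.7e-11). TMSB4X, which binds actin monomers, fell by 1.04, FSTL1, a secreted glycoprotein, by 1.20, TNS3, a focal adhesion protein, by 1.33 and HAPLN1, which links hyaluronan to proteoglycans, by 1.79.

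Genes of mitosis fell together, by modest amounts. Of 22 regulators of mitotic entry and exit, 21 fell and 1 rose, with a median log2 change of -0.63 against -0.00050 over all genes tested. NEK2, a centrosomal kinase, read 100, 98.6 and 94.5 CPM in untreated cells and 45.5, 47.1 and 48.5 CPM after recovery, and was the only member called lower (log2 change -1.06, standard error 0.05, edgeR quasi-likelihood adjusted p = 1.6e-09). CDC25C and CDC25B, phosphatases that activate CDK1, fell by 0.94 and 0.83 on the log2 scale, and AURKA, a spindle kinase, went from 257 to 155 CPM. PKMYT1, a kinase that holds CDK1 inactive, was the member that rose, from 71.4 to 84.0 CPM. All 13 mitotic kinesins, the motors of the spindle, fell, with a median of -0.69. KIF20A, a motor of the central spindle, read 217, 217 and 201 CPM before and 85.2, 92.1 and 94.1 CPM after, a fall of 1.23 that was again the only one called. Among kinetochore and centromere genes 16 of 20 fell and none rose, led by SGOL2, a guardian of centromeric cohesion, at -1.06, the centromeric histone CENPA at -0.96 and CENPF at -0.91. Of the condensin and cohesin subunits 11 of 13 fell, with SMC4 at -0.73. None of these 4 lists had a member called higher. Over all genes tested 23% fell, 2.52% were called lower and 4.86% were called higher.

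The upstream sequences of 6 of these genes are shown because the lists moved together and because many mitotic promoters are known to carry CCAAT boxes, bound by NF-Y, and a CHR element, bound by the MuvB complex. The 6 were picked by hand from the regulators and kinesins, so the motifs in them do not give the share in those lists. The stretches are the 110 bases before each RefSeq start, read 5′ to 3′ on the gene's own strand (build GRCh38.p14, not the build of the counts). Capitals mark CCAAT or its reverse complement ATTGG, and the CHR letters TTTGAA or TTCGAA or their reverse complements TTCAAA and TTCGAA; in these stretches the motifs do not overlap.
NEK2: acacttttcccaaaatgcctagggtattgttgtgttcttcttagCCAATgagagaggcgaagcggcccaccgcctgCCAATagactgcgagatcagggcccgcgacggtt
CCNB2: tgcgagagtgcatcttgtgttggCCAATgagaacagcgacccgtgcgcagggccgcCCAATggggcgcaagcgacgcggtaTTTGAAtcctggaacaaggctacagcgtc
PLK1: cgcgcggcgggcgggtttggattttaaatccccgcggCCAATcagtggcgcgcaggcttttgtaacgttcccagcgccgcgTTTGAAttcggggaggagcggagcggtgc
CDC20: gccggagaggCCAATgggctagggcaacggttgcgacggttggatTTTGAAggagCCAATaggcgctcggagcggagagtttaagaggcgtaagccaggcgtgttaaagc
KIF23: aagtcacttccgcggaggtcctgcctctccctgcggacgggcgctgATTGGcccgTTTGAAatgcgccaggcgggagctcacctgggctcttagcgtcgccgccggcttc
KIF20A: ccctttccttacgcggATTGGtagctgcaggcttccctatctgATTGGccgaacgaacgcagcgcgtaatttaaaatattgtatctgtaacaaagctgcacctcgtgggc

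NEK2 lies at chr1:211675622-211675731 on the minus strand, CCNB2, which encodes a mitotic cyclin, at chr15:59105036-59105145, PLK1, a mitotic kinase, at chr16:23678779-23678888, CDC20, an activator of the anaphase-promoting complex, at chr1:43358871-43358980, KIF23, a cytokinesis motor, at chr15:69414239-69414348 and KIF20A at chr5:138179002-138179111, all on the plus strand except NEK2. The 6 stretches all hold at least 1 CCAAT box, and those of CCNB2, PLK1, CDC20 and KIF23 also hold CHR letters. The 2 genes called lower, NEK2 and KIF20A, have no CHR letters in these stretches. In the 250 bases before the start, CHR letters were found in 11 of 25 windows of the 16 mitotic regulators that the RefSeq table holds and in 7 of 14 windows of the 13 kinesins, against 14.3% of all 35116 windows. CCAAT boxes were found in 20 and 10 of these windows, against 32.0% of all. A list of MHC class II genes and their regulators, of which 8 of 13 tested rose, was searched as well. There CHR letters were found in 5 of 19 windows (26.3%) and CCAAT boxes in 11 (57.9%). Raised shares were therefore not particular to the mitotic lists, and several windows can come from the same gene. AURKA, TTK, UBE2C and BIRC5 are not in the table. A match describes letters and was not tested for binding.

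DNA replication genes did not follow the mitotic ones. Of 37 replication and licensing genes, 18 rose and 6 fell, with a median of 0.06 and no member called. Over all genes tested 23.9% rose, 23% fell and 7.38% were called. MCM3, a subunit of the replicative helicase, read 353, 357 and 360 CPM before and 469, 461 and 464 CPM after, a rise of 0.38 (standard error 0.04, edgeR quasi-likelihood adjusted p = 1.8e-06). MCM2, CDC45 and the primase subunit PRIM1 rose by 0.28, 0.35 and 0.36 on the log2 scale. The largest decreases in the list were those of RRM2 and TYMS. RRM2, a subunit of ribonucleotide reductase, read 312, 329 and 340 CPM before and 187, 187 and 187 CPM after, and TYMS, thymidylate synthase, fell by 0.47. Without treated replicate 1, 10 replication genes fell and 18 rose. Among G1 and S cyclins and their kinases, CCND2, a D-type cyclin, rose by 0.73 and CCNA2, the cyclin of S and G2, fell by 0.71. FOXM1, a transcription factor of mitotic genes, fell by 0.53, and 6 of 12 DREAM, MuvB and FOXM1 genes fell and none rose.

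The 5 CDK inhibitors tested moved in both directions. CDKN1A rose by 1.21 on the log2 scale (standard error 0.06, edgeR quasi-likelihood adjusted p = 4.0e-09), whereas the 4 others fell. CDKN2C, an inhibitor of CDK4 and CDK6, read 58.6, 61.4 and 57.8 CPM before and 17, 22 and 21.2 CPM after. CDKN1B, which encodes p27, fell by 0.85 and CDKN2D by 0.90. Of 22 p53 and target genes tested 12 rose and 3 fell, with a median of 0.17, against 23.9% and 23% of all genes tested. GDF15, a stress cytokine, went from 1.16, 1.23 and 1.42 to 8.13, 11.6 and 10.6 CPM, and GADD45A, a growth arrest gene, rose by 1.02. In the BCL2 family, which sets the threshold of apoptosis, 9 of 15 rose and 2 fell. The anti-apoptotic BCL2A1 rose by 3.50 and was highest in treated replicate 1, at 4.06 CPM against 2.07 and 1.96 CPM, while the pro-apoptotic BMF fell by 1.20. The pro-apoptotic PMAIP1 and BBC3 rose by 0.80 and 0.67.

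Genes of double-strand break repair changed by small amounts. Of 21 homologous recombination genes 6 rose and 3 fell, with a median of 0.08, and of 11 end joining genes 1 rose and 1 fell, with a median of 0.03. Over all genes tested 23.9% rose and 23% fell. No member of either list was called, against 7.38% of all genes tested. EXO1, a nuclease of end resection, rose by 0.37, while BRIP1, a helicase partner of BRCA1, fell by 0.31. POLM, a polymerase of end joining, rose by 0.41 and DCLRE1C, the nuclease Artemis, fell by 0.37. Among 11 break signalling genes H2AFX, the histone phosphorylated at breaks, had the largest change, a fall of 0.52 on the log2 scale.

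MHC class II genes, which present peptides to helper T cells and are silent in most non-immune cells, rose, while their regulator CIITA did not pass the test. Of the 16 genes in the list 13 were tested, and HLA-DRB5, HLA-DOA and HLA-DOB did not pass the filter on low counts. Of the 13 tested 8 rose, all 8 were called, and 1 fell, with a median of 1.72. Over all genes tested 23.9% rose, 23% fell and 4.86% were called higher. HLA-DRA passed the filter only through its treated libraries and could then only be called higher. Besides HLA-DRA, HLA-DPA1 read 0.413, 0.467 and 0.351 CPM before and 1.98, 1.98 and 1.69 CPM after, and HLA-DMA, which loads peptides, 0.571, 0.400 and 0.458 CPM before and 1.76, 2.25 and 2.53 CPM after. These genes have near-identical relatives, so that reads may be shared among them. CIITA, the master regulator of the class, and CD74, the invariant chain, were chosen after their values were seen. CIITA stood at 0.709 CPM before and 0.603 CPM after (edgeR quasi-likelihood adjusted p = 0.36), and CD74 at 0.476 and 0.582 CPM (edgeR quasi-likelihood adjusted p = 0.34). RFX5, a factor that binds class II promoters, fell by 0.17. Of the 16 MHC class I presentation genes 10 rose and 3 fell, with PSMB9, an immunoproteasome subunit, at 1.36 and HLA-B at 0.87. As a check on other cells, the summed level of 14 leukocyte markers ran from 14.9 to 16.2 CPM in treated and from 8.27 to 8.86 CPM in untreated libraries. Of the 6 markers tested 4 rose, 2 of them called, and 1 fell. Their median log2 change was 0.63 and the largest rise was 1.81. PTPRC, which encodes the pan-leukocyte antigen CD45, was the one that fell, from 0.316 to 0.131 CPM, and CD3E, LYZ and TYROBP did not pass the filter. The part of such cells in the rise of MHC class II and cytokine genes was not tested.

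Interferon-stimulated genes rose in part. Of 27 tested 16 rose, 11 of them called, and 3 fell, with a median of 0.57. Over all genes tested 23.9% rose, 4.86% were called higher and 23% fell. IFIT2, an antiviral RNA-binding protein, read 1.28, 1.5 and 1.34 CPM before and 15.6, 11.9 and 10.3 CPM after (log2 change 3.19, standard error 0.16, edgeR quasi-likelihood adjusted p = 1.9e-08). Its relative IFIT3 went from 2.48, 2.60 and 2.84 to 23.8, 17.1 and 16.5 CPM, and OASL, a sensor-enhancing oligoadenylate synthetase-like protein, from 2.32, 2.08 and 2.0 to 19.0, 15.3 and 14.0 CPM. In each of these genes treated replicate 1 was the highest library, and the groups did not overlap. USP18, a feedback inhibitor of interferon signalling, and IFITM3, a restriction factor, fell by 0.35 and 0.23.

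Chemokines, interleukins and NF-kappaB feedback genes also rose. Of 23 chemokine genes 14 were tested: 8 rose, all called, and 4 fell, with a median of 1.03. Over all genes tested 23.9% rose, 23% fell and 4.86% were called higher. The filter on low counts keeps genes read in the treated libraries alone, which can only be high, so the median can rest in part on it. IL8, the neutrophil attractant CXCL8, read 1.22, 0.900 and 0.946 CPM before and 24.7, 14.1 and 13.1 CPM after, and CCL20 0.551, 0.250 and 0.488 CPM before and 7.83, 5.27 and 5.04 CPM after. Besides CXCL14, CX3CL1, a membrane-bound chemokine, fell from 18.3, 16.9 and 15.5 to 7.81, 11.1 and 10.6 CPM. Of 17 interleukin and colony-stimulating factor genes 10 rose and none fell. IL24, a cytokine of the interleukin-10 family, read 2.36, 3.28 and 2.85 CPM before and 46.2, 28.0 and 28.6 CPM after, with replicate 1 again highest. IL32, in contrast, was even across libraries, at 26.7, 27.3 and 25.6 CPM before and 81.4, 82.4 and 81.1 CPM after. Of 12 NF-kappaB subunits and feedback genes 11 rose and none fell. BIRC3, an inhibitor of apoptosis, rose by 2.35, the subunit RELB by 1.24 and the feedback deubiquitinase TNFAIP3 by 1.22, while NFKB1 stood at 53.2 and 55.3 CPM. Without treated replicate 1, the counts of genes that rose were 8 for chemokines, 16 for interferon-stimulated genes and 11 for NF-kappaB genes, and the chemokine median was 0.77. Among 18 AP-1 and immediate early genes 8 rose and none fell. DUSP1, a phosphatase of MAP kinases, rose by 1.54 and IER3 by 1.14, while FOS stood at 107 CPM before and 75.2 CPM after (edgeR quasi-likelihood adjusted p = 0.42).

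**Figure D3:**
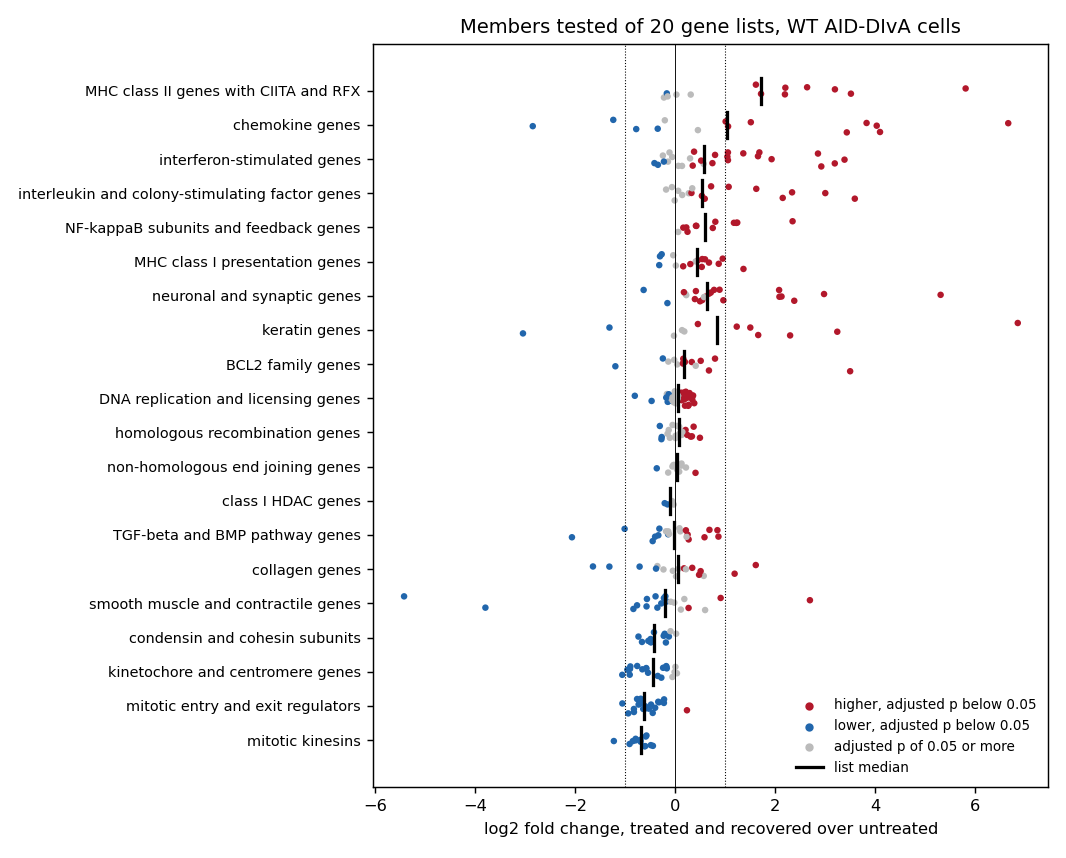
Each point is a tested member of 1 of 20 gene lists, placed by its log2 fold change, red or blue where it rose or fell at an adjusted p below 0.05 and grey otherwise, with a black bar at the list median and dotted lines at 1 and -1. MHC class II genes have the highest median, 1.72, and mitotic kinesins the lowest, -0.69, with all 13 kinesins to the left of 0.

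Lists of genes typical of other tissues were counted in the same way. Of 22 neuronal and synaptic genes tested 17 rose, 6 of them called, and 2 fell, with a median of 0.64. Over all genes tested 23.9% rose, 4.86% were called higher and 23% fell. CHGA, a protein of secretory granules, read 0.748, 0.617 and 0.672 CPM before and 4.70, 5.63 and 5.67 CPM after, and CPLX1, a regulator of synaptic vesicle fusion, 1.0, 1.15 and 1.14 CPM before and 4.54, 4.80 and 5.13 CPM after. REST, the repressor of neuronal genes, fell by 0.16, and TUBB3, the neuronal beta-tubulin, by 0.63. Of 12 keratin genes 7 rose and 2 fell. KRT15 went from 0.827, 1.05 and 1.13 to 13.4, 7.59 and 7.63 CPM, KRT7 rose by 2.30 and KRT16 fell by 1.31. Of the 8 epithelial markers 5 were tested, 4 rose, and their summed level ran from 327 to 374 CPM in treated and from 310 to 314 CPM in untreated libraries. The 7 neuronal markers all rose, and their summed level ran from 156 to 176 CPM in treated and from 110 to 112 CPM in untreated libraries; the part of other cell types was not tested. Of the 7 smooth muscle markers 1 rose and 4 fell, with a median of -0.39, and of the 5 endothelial markers 1 rose and none fell. Of the 9 mesenchymal markers tested 1 rose and 5 fell, and the summed level of the list ran from 2722 to 3166 CPM in treated and from 4023 to 4236 CPM in untreated libraries.

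Cytoskeletal and matrix genes moved in both directions. Of 20 smooth muscle and contractile genes 12 fell and 3 rose; next to MYOCD and TNNT2, MYH11, smooth muscle myosin, fell by 0.76 and ACTC1, cardiac actin, rose by 0.91. Among 17 collagen genes 6 rose and 4 fell, against 23.9% and 23% of all genes tested. The fibrillar chains COL3A1 and COL5A2 fell by 1.64 and 1.32, with COL3A1 at 41.0, 39.8 and 38.2 CPM before and 9.81, 14.7 and 13.7 CPM after. COL6A3, a chain of beaded filaments, rose from 97.1, 87.9 and 85.7 to 215, 198 and 203 CPM, and COL13A1, a transmembrane collagen, rose by 1.61. In the TGF-beta and BMP pathway 7 of 20 genes rose and 7 fell, to be read against the same shares. BMP4, a bone morphogenetic ligand, read 78.8, 79.0 and 82.4 CPM before and 15.5, 20.2 and 21.8 CPM after (log2 change -2.06, standard error 0.10, edgeR quasi-likelihood adjusted p = 7.1e-08). Its relative BMP2 rose by 0.86, INHBA, the activin chain, by 0.84, and the coreceptor TGFBR3 fell by 1.01. Against the same shares, 4 of 13 osteoblast lineage genes rose, among them ALPL, bone alkaline phosphatase, at 0.95, and 1 fell, SPARC, at -0.48.

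ID3, an inhibitor of E protein transcription factors, rose from 46.7, 49.9 and 50.1 CPM to 100, 126 and 122 CPM, a log2 change of 1.24. ID1 and ID4 rose by 0.60 and 0.77, and the E protein genes TCF4 and TCF12 fell by 0.79 and 0.35. The targets of the drug changed by small amounts in RNA. HDAC1 stood at 153, 161 and 161 CPM before and 158, 150 and 157 CPM after (edgeR quasi-likelihood adjusted p = 0.59), and HDAC3 and HDAC8 fell by 0.21 and 0.15. Outside class I, HDAC9 rose by 0.75 and HDAC6, a tubulin deacetylase, fell by 0.52. Of 12 histone acetyltransferase genes 9 fell and 1 rose, with KAT2B and NCOA1 at -0.70 each. H1F0, a linker histone and textbook responder to HDAC inhibitors, stood at 740 and 744 CPM, and 9 of 11 linker and variant histone genes fell. Of 29 replication-dependent histone genes tested 11 fell and 1 rose. Of 16 ATF4 stress response genes 4 rose and 6 fell, with a median of -0.0022. Among stress genes, SLC7A11, the cystine transporter, fell by 1.24, TRIB3, a pseudokinase of the ATF4 pathway, rose by 0.80, and MT2A, a metal-binding metallothionein, rose by 0.76. HMGCS1, an early enzyme of cholesterol synthesis, rose by 0.72. Of 84 cytoplasmic ribosomal protein genes 27 rose and 6 fell, with a median of 0.07, against 23.9% and 23% of all genes tested. All 13 mitochondrial genome genes had positive changes and 6 rose, with a median of 0.24.

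The response was set beside that of ID3-KO AID-DIvA cells under the same schedule, from 6 other libraries. The responses differed in 1.21% of 21265 genes in the edgeR interaction over 12 libraries, 96 genes in the positive direction (0.451%) and 162 in the negative one (0.762%). The total of 258 ranged from 122 without untreated WT replicate 1 to 297 when single libraries were left out, and was 157 with the replicate number as a block and 462 with DESeq2. CAV1 fell by 1.93 on the log2 scale in WT and by 1.21 in ID3-KO cells (difference -0.72, standard error 0.10, edgeR quasi-likelihood adjusted p = 0.0023). BMP4 fell by 2.06 and by 1.03 (difference -1.04, edgeR quasi-likelihood adjusted p = 0.00073). CX3CL1 fell by 0.78 in WT cells and had a log2 change of 0.29 in ID3-KO cells (difference -1.07, edgeR quasi-likelihood adjusted p = 0.0058). IFIT2 and IFIT3 rose by 3.19 and 2.85 in WT cells and by 1.98 and 1.59 in ID3-KO cells (differences 1.20 and 1.25, edgeR quasi-likelihood adjusted p = 0.0090 and 0.0027). SOD2 rose by 1.39 and 0.71 (difference 0.67, edgeR quasi-likelihood adjusted p = 0.0015), and in the deposited annotation its span of chromosome 6 from 160090089 to 160183561 may take in reads of neighbours. The median of the mitotic regulators was -0.63 in WT and -0.83 in ID3-KO cells, with 1 member, AURKA, that differed (0.36, edgeR quasi-likelihood adjusted p = 0.013). Of 16 TNF superfamily genes, which encode ligands and receptors of cell death and inflammation, 9 rose and 4 fell in WT cells, and 1 differed from ID3-KO cells in the positive and 3 in the negative direction. The neuronal list had 3 members in the negative direction, the chemokine and osteoblast lists 2 each, and the keratin list 1 in each direction. The replication-dependent histone list had 3 in the positive direction. No member of the MHC class II, mitotic kinesin or DNA replication list differed, which does not show that the responses were equal. Of 27 interferon-stimulated genes 4 differed, in the positive direction, against 0.451% of all genes. The median of this list was 0.57 in WT cells and, over 26 genes, 0.81 in ID3-KO cells, with a median difference of -0.011.

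The response was also set beside that of WT U2OS cells collected at the end of 24 h of mocetinostat, before recovery, again from 6 other libraries. Cell line label and stage coincide there, and their parts in a difference cannot be told apart. The responses differed in 42.2% of 22238 genes: 4555 had a higher response after recovery (20.5%) and 4822 a lower one (21.7%). Untreated WT U2OS replicate 1 had 27361 genes with a count, against 30832 and 29364 in replicates 2 and 3. Without that library 11829 genes differed. Of the 915 genes called higher after recovery and tested in both, 564 (61.6%) were called higher before it, which is 25.7% of the 2195 called there; before recovery 13.6% of all genes tested were called higher and 5.06% lower. Of 492 called lower after recovery, 126 (25.6%) were called lower before it, 11.9% of the 1056 called there, and 62 were called higher. The median change of those 492 genes was -1.26 after recovery and -0.35 before it.

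The lists differed in how the responses compared. Replication genes had a median of -0.51 before recovery and 0.06 after it, and 27 of 37 had a higher response after recovery and 2 a lower one. MCM3 had a log2 change of -0.90 before and 0.38 after (difference 1.28, edgeR quasi-likelihood adjusted p = 2.9e-08). For mitotic kinesins the medians were -0.32 before and -0.69 after, with 7 of 13 members lower after recovery and none higher. The kinesin CENPE read 60.7 CPM by library total in untreated WT U2OS replicate 1, against 85.1 and 94.8 in replicates 2 and 3. KIF11 varied less, at 121.3, 124.1 and 136.2 CPM. A low untreated value raises the change before recovery, and the list comparisons were not tested without that replicate 1. NEK2 had a change of 0.14 before and -1.06 after (difference -1.20, edgeR quasi-likelihood adjusted p = 1.1e-07). Neuronal genes had a median of 2.03 before and 0.64 after, and 13 of 22 had a lower response after recovery. SCG2, a granule protein chosen after its values were seen, changed by 3.88 before and had a log2 value of 0.22 after. MHC class II genes had medians of 2.51 before and 1.72 after, and HLA-DRA rose by 6.13 before and 5.80 after (difference -0.32, standard error 0.52, edgeR quasi-likelihood adjusted p = 0.68). CIITA differed, with 1.42 before and -0.23 after (difference -1.65, edgeR quasi-likelihood adjusted p = 0.00032). Of the interferon-stimulated genes 11 had a higher response after recovery and 2 a lower one: IFIT2 had -0.51 before and 3.19 after, and IFIT3 -0.72 and 2.85. MYC rose by 0.43 before and 1.43 after (difference 0.99, standard error 0.09), and MYOCD fell by 1.74 before and by 5.42 after.

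**Figure D4:**
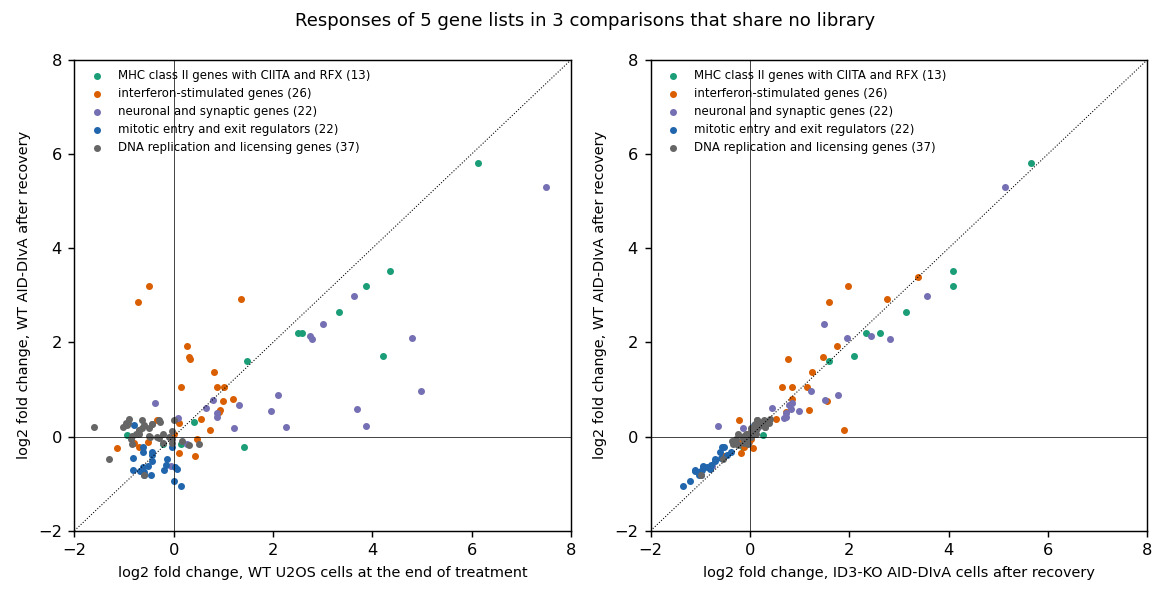
Log2 fold change of WT AID-DIvA cells after recovery (vertical axis) against that of WT U2OS cells at the end of treatment (left) and of ID3-KO AID-DIvA cells after recovery (right) for the members of 5 gene lists tested in both; the dotted line marks equal change, and the comparisons share no library. On the left replication genes (grey) lie mostly left of 0 on the horizontal axis and near 0 on the vertical one, with medians of -0.51 and 0.06, while on the right the points run along the line.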

How the data were processed

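Stranded total RNA libraries were prepared and sequenced in pairs by the authors. They used the Roddy workflow, with STAR as aligner on hg19/GRCh37 and featureCounts to count fragments per gene (tools and build are also in the submitters' processing notes). The deposited raw counts from either strand, for 57820 genes in each library, were used here, and the FPKM and TPM columns were not. Overlapping and antisense genes can share such counts. Coordinates are as in the files. Analysis was done in edgeR 4.0.16 under R 4.3.3, by a robust quasi-likelihood fit after TMM scaling and filterByExpr, with Benjamini-Hochberg adjustment over all genes tested. The comparison used its 6 libraries, and responses were compared by interaction over 12. CPM were scaled by TMM over the 6 libraries. A standard error was obtained from the fold change and the F statistic of the test. Intervals cover counting error only. Within each group, every pair among the 3 replicates differed beyond sampling noise.

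Named genes were ID3, the 10 largest changes and 5 largest CPM differences in each direction among called genes with at least 1 CPM and no overlap, for each gene list its first member and up to 3 members in each direction, and for each interaction the 3 smallest adjusted p in each direction. Further members were named as illustrations after their values were seen. Members, lists and naming rule were all chosen with earlier results of these data known. Promoter sequences and motif shares come from a RefSeq table (GRCh38.p14). The steps were tested on simulated counts. As alternatives served DESeq2 1.42.0 and its size factors within edgeR, no filter or at least 10 counts in every library, one fit over all 12 AID-DIvA libraries, no fold threshold or a fold of 1.5 as the null, a replicate block, reverse-strand counts, and omission of each library in turn.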

Additional observations from a re-analysis of the deposited data

Results flagged for a closer look

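The response of WT cells differed from another response in the genes below, by the edgeR interaction test; 3 genes were taken in each direction for each comparison, those with the smallest adjusted p, and none was weighed for a cause.

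Between WT and ID3-KO AID-DIvA cells after recovery, TGM2, a protein cross-linking enzyme, rose by 1.20 on the log2 scale in WT and by 0.32 in ID3-KO cells, a difference of 0.87 (standard error 0.10, edgeR quasi-likelihood adjusted p = 0.00038). CCDC147, a gene of ciliated cells, went from 3.74 to 57.4 CPM in WT cells, with a difference of 1.30. KRT75, a keratin of the hair follicle, went from 2.05 to 15.1 CPM, with a difference of 1.08. RPLP0P2, a ribosomal pseudogene that can share reads with its parent, rose by 2.25 in WT and 3.65 in ID3-KO cells, a difference of -1.41. RP11-47I22.3, a long non-coding RNA, stood at 74.2 and 70.3 CPM in WT cells and had a log2 change of 1.53 in ID3-KO cells, a difference of -1.61. PPARGC1A, a coactivator of mitochondrial biogenesis, fell by 0.58 in WT and had a log2 change of 1.94 in ID3-KO cells, a difference of -2.53 (standard error 0.23, edgeR quasi-likelihood adjusted p = 5.2e-05).

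Between WT AID-DIvA cells after recovery and WT U2OS cells before it, the adhesion gene AMIGO2 had log2 changes of 0.85 and -2.13, a difference of 2.98 (standard error 0.09, edgeR quasi-likelihood adjusted p = 4.8e-10). LIF, a cytokine, had 0.32 and -2.05, a difference of 2.37, and RIN2, a regulator of endocytic trafficking, 0.32 and -1.55, a difference of 1.87. PCDH1 and PCDH7, which encode protocadherins, had differences of -4.81 and -3.09, and RIMKLA, a peptide synthetase, had -4.01. PCDH1 stood at 1.09 and 1.32 CPM and RIMKLA at 1.79 and 1.73 CPM in untreated and treated WT AID-DIvA cells.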

How the results depend on the processing

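The counts of 986 genes higher and 512 lower became 607 and 318 with at least 10 counts in every library, where fewer genes are tested, and 4851 and 4661 at an adjusted p below 0.05 alone. Leaving out each library in turn gave 1006 to 1074 genes higher and 514 to 577 lower. The 258 genes whose response differed from ID3-KO cells became 462 with DESeq2 and 613 without a filter on low counts, for which the cause was not tested, and 122 to 297 without each library in turn, lowest without untreated WT replicate 1; it was 149 without treated ID3-KO replicate 2, 146 and 138 without untreated ID3-KO replicates 1 and 2, and 135 without untreated WT replicate 2. The 9377 genes that differed from the response before recovery ranged from 8079 to 11829, highest without untreated WT U2OS replicate 1. The deviations of same-numbered treated and untreated libraries had correlations of -0.062, 0.114 and -0.223, against -0.144 to 0.201 for unlike numbers. With 3 libraries per group these cannot show whether replicate numbers share a processing step. With the replicate number as a block 977 genes were higher and 504 lower, and 157 differed from ID3-KO cells. Of the results for single named genes under all alternatives, 3144 kept their direction and side of the threshold, 214 lost the call, 9 gained one and 0 reversed; 109 of the changes came with the test against a fold of 1.5, which asks for a larger change. Called genes with a mean under 1 CPM, 534 higher and 275 lower, rest on few reads.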
